A study of Mus musculus with 20 samples.

Results

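The genes examined here code for the B-cell receptor complex and the proteins that carry its signal: Cd79a, Cd79b, Ms4a1, Blk, Blnk, Btk, Cd22, Cd72 and Bank1. All non-control probes carrying 1 of these 9 names were taken, without regard to their values, which gave 14 probes of 39429 on the array and 9 of 31093 names. RNA from whole blood of male mice was measured on 20 one-colour arrays, 5 in each of 4 groups. The mice were C57BL/6 wild type (WT) or B6.129P2-Il10tm1Cgn/J (Il10-/-, targeted for the anti-inflammatory cytokine interleukin 10). They were littermates from crosses of heterozygous parents, 8 to 10 weeks old, and blood was drawn by cardiac puncture 24 h after 0 Gy (sham handling) or 7 Gy of X-rays. All groups were kept in 1 room, and no other allele or agent is stated. The groups were compared for the effect of radiation in each genotype, the effect of genotype at each dose, and the difference between the radiation effects.

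The B-cell receptor is a membrane immunoglobulin held together with the Cd79a and Cd79b chains, whose cytoplasmic tails carry the signal into the cell. Antigen binding lets Src family kinases such as Blk and Lyn phosphorylate these tails, Syk and Btk are recruited, and the adaptor Blnk brings Btk and phospholipase C gamma together, which opens the calcium and NF-kB branches. Cd22 and Cd72 recruit phosphatases that damp the signal, Bank1 is a scaffold that binds Lyn, and Ms4a1 (CD20) is a surface protein of mature B cells. In a bulk blood sample, fewer B cells and less RNA per B cell cannot be told apart.

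Each value below is the log2 processed signal of a probe minus the median of all probes on that array, so that 0 is the array's median and 1 unit is a doubling. Of the 14 probes, 12 (8 genes) passed the filters, and the only Blk probe and the dimmer Cd22 probe did not, because they were too often near background. A probe was called changed when limma gave an unadjusted p below 0.001 and a Benjamini-Hochberg rate under 10% over all 18587 features tested. A spread over the 5 arrays of a group, each counted as 1 mouse, is given as SD.

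The arrays differed in quality. Unirradiated WT replicate 5 had 29.9% of its spots well above background and a median SD of 0.889 log2 units between repeated spots of 1 probe, and irradiated Il10-/- replicate 3 had an SD of 0.414. On the other 18 arrays the SD ran from 0.137 to 0.237. Replicates 1 and 2 of each group differed from each other by a robust SD of 0.230 to 0.336 over all tested features, against 0.407 to 1.39 for the other 36 pairs of replicates, while repeated spots on those arrays differed by 0.151 to 0.196. Nothing in the labels says that they share a mouse, so all 5 arrays of a group were counted. If they do, the SDs, SEs and p-values below count that mouse as 2. For the radiation effects, the counts of called probes and pathway genes with these 2 averaged into 1 sample are given beside the results. The ratio tests were not repeated that way, so their p-values hold only if these 2 arrays are from separate mice. The Il10 probe was not well above background on any array labelled WT (mean -1.54 at 0 Gy and -1.85 at 7 Gy) and was so on all 10 labelled Il10-/- (2.75 and 2.71). The place of that probe relative to the targeted part of the gene was not analysed here. The signal lay in the mice labelled as targeted for Il10, but without the probe's place it cannot decide whether the labels are right. Every direction between genotypes below is given by the labels. Whether labels were exchanged was not tested. Of 8 mature neutrophil markers, 5 were called higher in unirradiated mice labelled Il10-/- than in those labelled WT, led by Retnlg (2.88), Mmp8 (2.77) and S100a8 (2.35). Each slide held 1 array of every group, so slides were balanced over the groups.

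In the blood of WT mice, 9 of the 12 tested probes were called lower 24 h after 7 Gy, and none higher. Over all features 2.32% were called lower, 4.48% higher and 6.8% either way. The 9 calls covered Cd79a, Cd79b, Ms4a1, Blnk, Cd22, Cd72 and Bank1, with falls between 1.84 and 3.05 log2 units. The median over the 12 probes was -2.33, beside -0.02 over all features. In the mice labelled Il10-/-, 10 of 12 were called lower and none higher, against a background of 5.87% lower, 3.29% higher and 9.16% either way, and the median was -2.69 beside -0.10. The radiation groups did not overlap for the same 9 probes in WT and for 10 in Il10-/- mice, while 4.26% of all features were lower without overlap in WT and 10.9% in Il10-/- mice. Btk was the exception, with no call from either of its probes in either genotype.

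**Figure D1:**
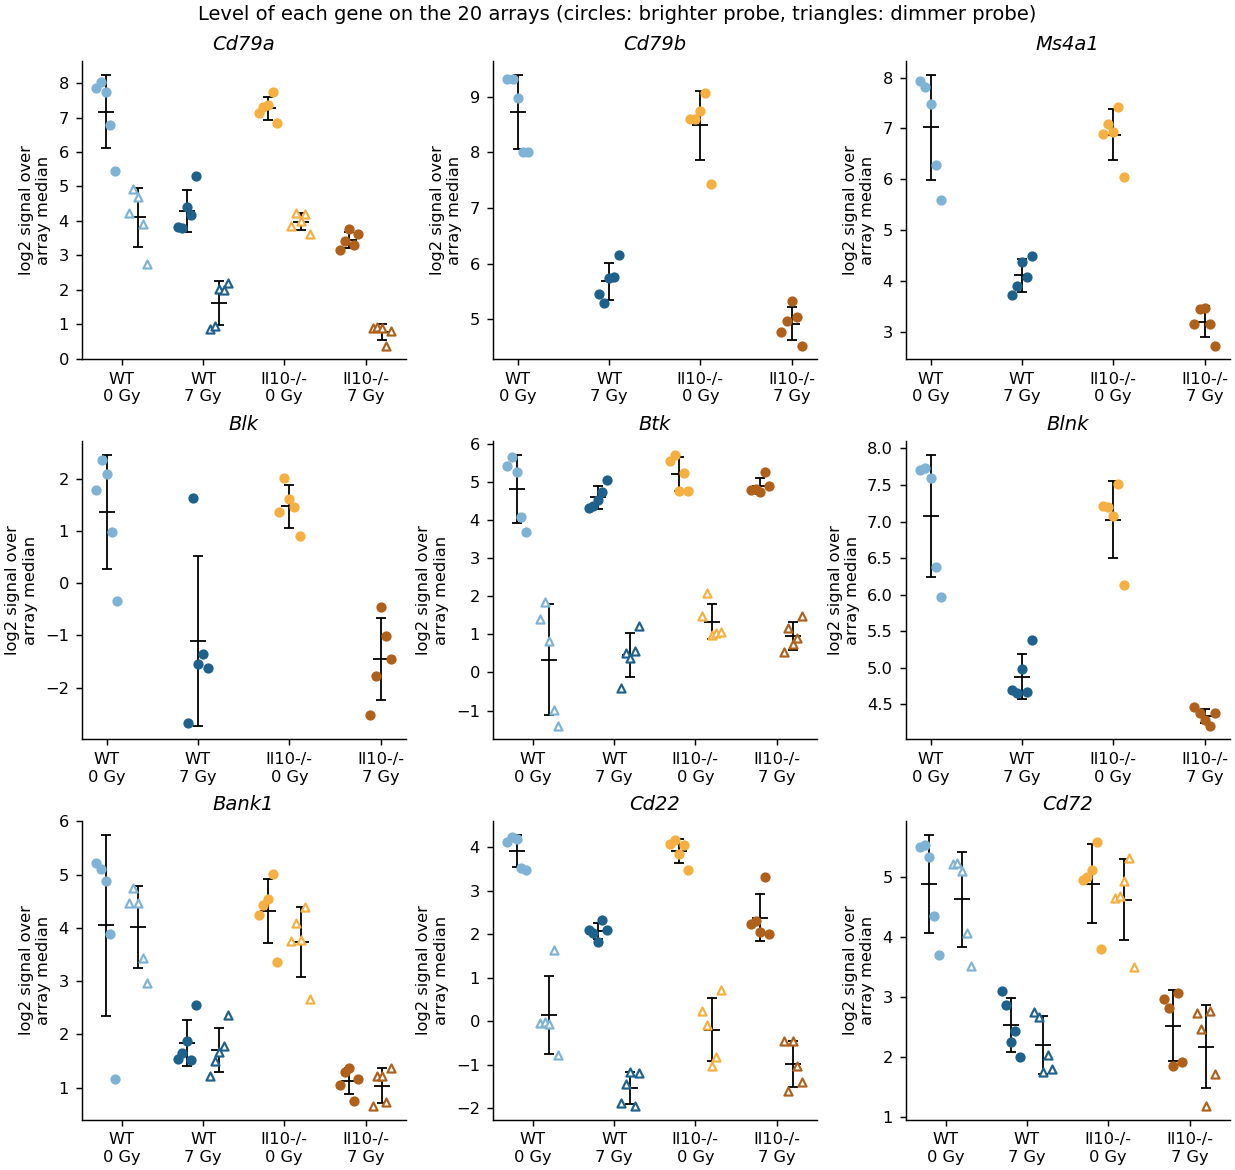
Level of each of the 9 genes on every array, as log2 signal over the array median, by genotype and dose. Each point is 1 array, counted as 1 mouse, and bars give the mean and SD of 5 arrays. Each panel has its own axis, since levels of different probes are not comparable. In 7 genes at least 1 probe shows the unirradiated groups wholly above the irradiated ones in both genotypes, the Blk points overlap in WT, and the Btk points overlap in both.

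The RNA signal for both signal-carrying chains of the receptor fell in both genotypes. Cd79b, the beta chain, has 1 probe (A_51_P342652, on the minus strand at chr11:106172780-106172839 of mm9). In unirradiated WT mice Cd79b read 9.32, 9.32, 8.99, 8.0 and 8.01 in replicates 1 to 5, and in irradiated WT mice 5.45, 5.29, 5.74, 5.77 and 6.16. The lowest unirradiated mouse was still well above the highest irradiated one. The difference was -3.05 (SE 0.40), an 8.26-fold lower signal (limma, adjusted p = 0.000332). The Cd79b values of mice labelled Il10-/- were 8.60, 8.59, 8.75, 9.06 and 7.44 without radiation and 4.77, 4.96, 5.32, 5.04 and 4.52 after it. The groups again lay apart, by -3.56 (SE 0.30) or 11.8-fold (limma, adjusted p = 2.04e-05).

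Cd79a, the alpha chain, was measured by 2 probes, which are shown because they lie in different parts of the transcript and fell alike. The brighter one starts at base 930 of its reference transcript and holds a polyadenylation signal, given in capitals within its last 30 bases. The array annotation places it at chr12:53180558-53180617 of mm9, although the gene is on chromosome 7. The dimmer one starts at base 321 and has no position in the annotation, and its 60 bases are printed whole.
Cd79a brighter probe (A_55_P2137496), end: gtgatAATAAAtccttcccaaagcaaaaaa
Cd79a dimmer probe (A_66_P120987): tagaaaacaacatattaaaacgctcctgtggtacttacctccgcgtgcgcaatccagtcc

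Across the 20 arrays the 2 Cd79a probes correlated at r = 0.986, a description only, since both were read on the same arrays. With the brighter probe, unirradiated WT mice gave 7.85, 8.04, 7.74, 6.79 and 5.46 and irradiated ones 3.82, 3.79, 4.40, 4.16 and 5.29. Unirradiated replicate 5 was nearly as low as irradiated replicate 5, and the groups came within reach of each other there without overlapping. The difference was -2.88 (SE 0.51, 7.37-fold, limma adjusted p = 0.00198), and that of the dimmer probe was -2.50 (SE 0.47). The brighter probe read, in mice labelled Il10-/-, 7.15, 7.30, 7.36, 7.75 and 6.83 without radiation against 3.16, 3.41, 3.76, 3.30 and 3.61 with it. That is a difference of -3.83 (SE 0.23), 14.2-fold lower, the largest of any probe of these genes (limma, adjusted p = 3.08e-06), with -3.20 (SE 0.22) for the dimmer probe.

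Ms4a1, the CD20 surface protein, was read by 1 probe (A_52_P483336, chr19:11325367-11325426 of mm9, minus strand). Its values were 7.94, 7.82, 7.48, 6.28 and 5.60 in unirradiated and 3.72, 3.90, 4.37, 4.07 and 4.50 in irradiated WT mice. They were 6.88, 7.09, 6.93, 7.42 and 6.05 in unirradiated and 3.16, 3.45, 3.48, 3.16 and 2.72 in irradiated mice labelled Il10-/-. No irradiated mouse reached the lowest unirradiated one of its genotype. The fall was -2.91 (SE 0.47, 7.53-fold, limma adjusted p = 0.00118) in WT and -3.68 (SE 0.28, 12.8-fold, limma adjusted p = 9.21e-06) in Il10-/- mice.

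Among the kinases, Btk did not follow the receptor chains. Btk is the Tec family kinase whose loss stops B-cell maturation in people, and it is also made in myeloid cells. It has 2 probes, shown here because both read the same absence of a call. The brighter one (A_55_P2158498, chrX:131076995-131077054 of mm9) starts at base 2360 of the transcript, and the dimmer one (A_55_P1953819, chrX:131083955-131084014) at base 1665.
Btk brighter probe, end: aacactttgggggagggaaaactgtaaata
Btk dimmer probe: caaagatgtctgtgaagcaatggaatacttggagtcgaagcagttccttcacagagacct

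The brighter Btk probe gave 5.41, 5.66, 5.26, 4.07 and 3.68 in unirradiated WT mice and 4.3, 4.36, 4.53, 4.74 and 5.05 in irradiated ones. Replicates 1 to 3 were higher without radiation and replicates 4 and 5 were lower, so the groups overlapped widely. The difference was -0.22 with a 95% interval of -1.15 to 0.71 (limma, adjusted p = 0.79). In mice labelled Il10-/- the values were 5.55, 5.71, 4.75, 5.23 and 4.75 without and 4.78, 4.81, 4.73, 5.25 and 4.88 with radiation. The difference was -0.31, with an interval of -0.86 to 0.23. For the dimmer probe, well above background on 14 of 20 arrays, it was 0.11 (-1.14 to 1.36) in WT and -0.37 (-0.97 to 0.24) in Il10-/- mice. A fall of Btk by more than 1.15 log2 units in WT or 0.97 in Il10-/- mice lies outside the intervals of both probes. The WT sign was not stable: the dimmer probe turned to -0.12 under 75th percentile scaling and the brighter one to 0.55 under another background correction (normexp).

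Blk, a Src family kinase restricted largely to the B lineage, was near background and was not tested. Its probe was well above background on 3, 1, 5 and 0 of 5 arrays in WT at 0 and 7 Gy and in Il10-/- at 0 and 7 Gy. In WT the unirradiated values were 1.79, 2.36, 2.09, 0.98 and -0.35 and the irradiated ones -2.68, 1.65, -1.55, -1.35 and -1.62. Irradiated replicate 2 alone reached into the unirradiated range, and the other 4 lay below all of it. Blk in mice labelled Il10-/- read 1.36, 2.03, 1.62, 1.46 and 0.91 without radiation and -2.53, -1.78, -0.45, -1.01 and -1.45 with it, with no overlap. Set against the lowest signal that counts as well above background on each array, this was at least 2.06-fold lower.

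The RNA signal of both adaptor genes fell. Blnk, which links Btk to phospholipase C gamma, has 1 probe (A_55_P2002757, chr19:41003426-41003485 of mm9, minus strand), and its end is shown because it also carries the polyadenylation signal (capitals).
Blnk probe, end: tgatactaatattgtccaAATAAAtgtatt

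Blnk gave 7.70, 7.73, 7.60, 6.38 and 5.97 in unirradiated and 4.70, 4.66, 4.98, 4.67 and 5.38 in irradiated WT mice. For mice labelled Il10-/- it gave 7.21, 7.19, 7.07, 7.52 and 6.13 against 4.46, 4.38, 4.29, 4.2 and 4.38. The irradiated Il10-/- mice were tightly grouped, with an SD of 0.099, and neither genotype showed overlap. The fall was -2.20 (SE 0.43, 4.59-fold, limma adjusted p = 0.00372) in WT and -2.68 (SE 0.26, 6.42-fold, limma adjusted p = 5.2e-05) in Il10-/- mice.

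Bank1, the Lyn-binding scaffold, was read by 2 probes (A_52_P277104, chr3:135716867-135716926, and A_55_P2142430, chr3:135727078-135727137 of mm9). The first gave 5.21, 5.10, 4.89, 3.89 and 1.16 in unirradiated WT mice and 1.54, 1.65, 1.88, 1.52 and 2.56 in irradiated ones. Only unirradiated replicate 5, the array with the widest spread between repeated spots, was not above the irradiated range, and it lay below all 5 irradiated mice. With it the difference was -2.22 (SE 0.64, limma adjusted p = 0.0288) and was not called, its unadjusted p being 0.00312 in limma. Without that array the Bank1 probe A_52_P277104 was called, at -2.94 on the log2 scale. It was called under 7 of 24 settings in all, the main analysis being counted among the 24. The second Bank1 probe was called in WT at -2.30 (SE 0.43, 4.94-fold, limma adjusted p = 0.00267). In mice labelled Il10-/- the first probe read 4.25, 4.44, 4.55, 5.01 and 3.37 without radiation against 1.06, 1.29, 1.37, 0.74 and 1.17 with it, and both probes were called, at -3.19 (SE 0.30) and -2.69 (SE 0.32).

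The RNA signal of the inhibitory receptor genes fell too. Cd22, a sialic-acid-binding receptor, gave 4.13, 4.24, 4.18, 3.53 and 3.49 in unirradiated and 2.10, 2.04, 1.83, 2.33 and 2.09 in irradiated WT mice with its brighter probe (A_55_P2016004, chr7:31651249-31651308 of mm9). For mice labelled Il10-/- it gave 4.07, 4.16, 3.85, 4.06 and 3.47 against 2.24, 2.31, 2.05, 3.31 and 2.00. Irradiated replicate 4 was about 1 log2 unit above its group and just under the lowest unirradiated mouse. The falls were -1.84 (SE 0.35, limma adjusted p = 0.0033) in WT and -1.54 (SE 0.28, limma adjusted p = 0.00322) in Il10-/- mice, the smallest among the called probes in each genotype. The dimmer Cd22 probe (A_55_P2163795, chr7:31665113-31665172), read for a predicted transcript, was well above background on 6 of 20 arrays, none of them irradiated. From the group mean, its signal was at least 1.36-fold lower after radiation in WT mice, where the groups did not overlap. The unirradiated WT values were -0.03, -0.02, -0.07, 1.65 and -0.77, so replicate 4 raised the mean behind this bound. Of these 5 arrays, 2 were well above background. No bound above 1 could be set in Il10-/- mice, where the groups overlapped.

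Cd72, a C-type lectin-like receptor, has 2 probes (A_55_P1961270, chr4:43460596-43460655, and A_55_P2180415, chr4:43460607-43460666 of mm9) that share 49 of their 60 bases, so they are not independent readings. Their last 30 bases are shown, with the stretch they share in capitals.
Cd72 brighter probe, end: GAAATATTTTTAAATACTTtgcacgtgtta
Cd72 dimmer probe, end: GCAGTTTTATTGAAATATTTTTAAATACTT

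The brighter Cd72 probe read 5.50, 5.53, 5.32, 4.34 and 3.70 in unirradiated WT mice and 3.10, 2.86, 2.25, 2.42 and 1.99 in irradiated ones. In mice labelled Il10-/- it read 4.94, 4.99, 5.11, 5.58 and 3.79 against 2.97, 2.81, 1.85, 3.05 and 1.90. No irradiated mouse reached the unirradiated range of its genotype. The falls were nearly the same size, -2.35 (SE 0.44, 5.11-fold, limma adjusted p = 0.00277) in WT and -2.37 (SE 0.37, 5.16-fold, limma adjusted p = 0.00121) in Il10-/- mice.

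**Figure D2:**
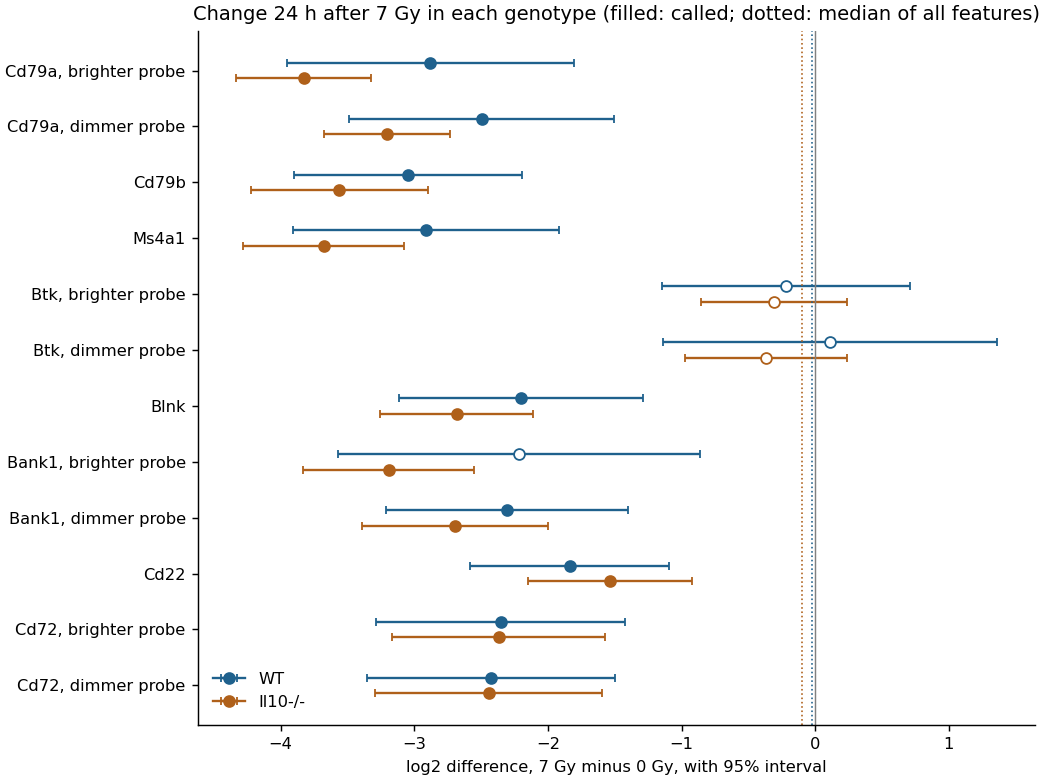
Log2 difference between irradiated and unirradiated mice (7 Gy minus 0 Gy, 5 arrays against 5) for the 12 tested probes in each genotype, with 95% intervals from limma. Filled points were called and open points were not, and the dotted lines mark the median of all 18587 features; all points but those of Btk lie at or below -1.54, and the intervals of Btk cross 0.

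These counts held under most other ways of handling the arrays. Averaging replicates 1 and 2 left 7 of 12 called in WT, where Blnk and Cd22 were lost at adjusted p = 0.0301 and 0.0318 in limma, and 9 of 12 in Il10-/- mice, where Cd22 was lost at adjusted p = 0.0286. Within each slide, all 9 called WT probes and all 10 called Il10-/- probes were lower at 7 Gy on 5 of 5 slides, and with the slide as a block 9 and 10 were called. One alternative ended every call: normexp background correction, which left the array medians scattered from 6.04 to 9.64 log2 units, against 2.34 to 4.3 for the processed signal, called 0 of the probes in both genotypes, with smaller falls of median -0.89 and -1.47. With the same correction followed by quantile normalization, 6 of 10 were called in WT, where both Cd79a probes and Cd22 were lost, and 10 of 10 in Il10-/- mice. Scaling moved the split of all calls, so the shares of all features above depend on it. In WT 431 lower and 832 higher calls became 761 and 795 with 75th percentile scaling and 693 and 705 with quantile normalization. In Il10-/- mice 1091 and 611 became 922 and 940 with scaling to the reference array and 872 and 946 in the authors' processed table. The median of all features moved from -0.02 to -0.28 in WT (75th percentile) and from -0.10 to 0.14 in Il10-/- mice (reference array), while the median of the 12 probes ran from -2.33 to -2.62 and from -2.69 to -2.55 over these 5 scalings.

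The unequal behaviour of Btk was examined within arrays, where scaling cancels, as the log2 ratio of 2 probes on the same array. These ratios restate the differences above on the same probes and arrays, so their tests are not independent support for them. The level of such a ratio has no meaning of its own, since probes differ in brightness, and only its change was compared. In each genotype 4 pairs were compared, making 8 exact permutation tests (2-sided, smallest possible p = 0.00794). Every array was counted as a separate mouse in these tests. With fewer separate mice the smallest possible p would be larger, and whether the ratio changes would then pass was not tested.

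Btk over Cd79b rose in both genotypes. In WT mice the log2 ratio was -3.91, -3.66, -3.72, -3.94 and -4.34 without radiation and -1.15, -0.93, -1.21, -1.02 and -1.11 with it. In mice labelled Il10-/- it was -3.05, -2.88, -3.99, -3.83 and -2.68 against 0.01, -0.15, -0.59, 0.21 and 0.35. No array of 1 dose lay within the range of the other, and the ratio rose 7.10-fold in WT and 9.53-fold in Il10-/- mice (exact permutation, adjusted p = 0.0159 for each). Btk over Blnk rose 3.95-fold in WT and 5.18-fold in Il10-/- mice, again without overlap and at the same adjusted p of 0.0159 by the exact permutation test. Within WT mice at 0 Gy this ratio was close to constant, from -2.34 to -2.07, although the levels of both genes dropped together on replicates 4 and 5.

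The changes of the other pairs did not pass the threshold. The ratio between the 2 receptor chains, Cd79a over Cd79b, changed by 0.17 in WT and -0.26 in Il10-/- mice (exact permutation, adjusted p = 0.706 and 0.317). Unirradiated WT replicate 5 stood apart at -2.55, the others being between -1.47 and -1.21, and without it the WT change was -0.08. Cd22 over Cd72 changed by 0.52 in WT and 0.83 in Il10-/- mice, short of the threshold after adjustment (exact permutation, adjusted p = 0.159 and 0.0635).

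**Figure D3:**
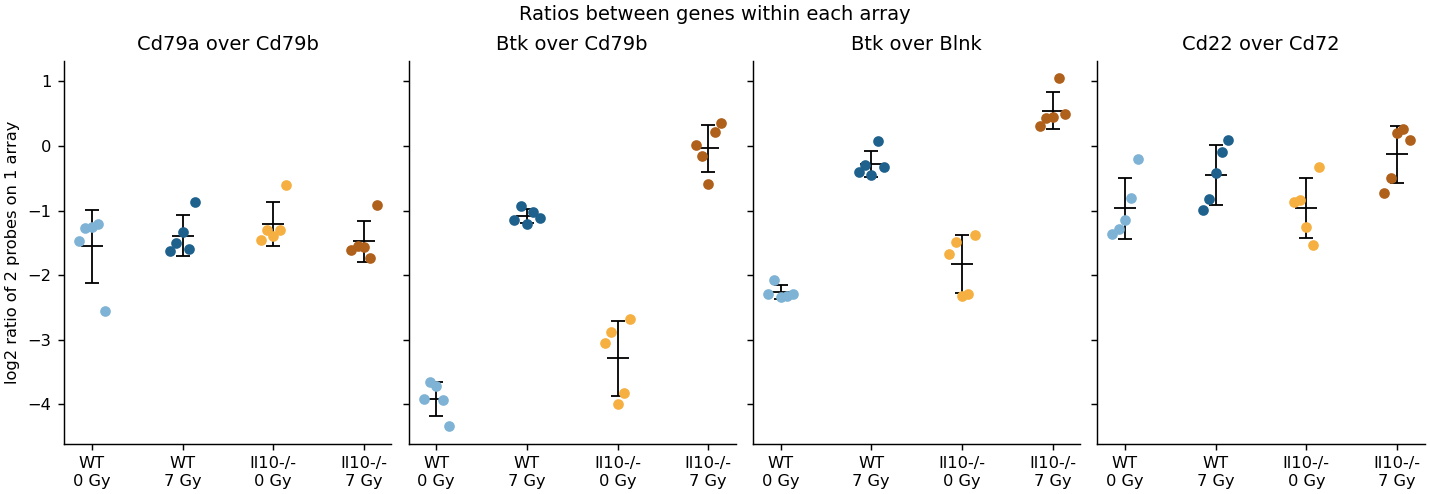
Log2 ratio of 2 probes on the same array for 4 pairs of genes, by genotype and dose. Points are mice and bars give mean and SD of 5; the 2 ratios with Btk are higher in every irradiated mouse than in any unirradiated one of the same genotype, and the other 2 overlap.

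Before irradiation no difference between the genotypes was called in these genes. None of the 12 probes was called, and 0 of 12 reached an unadjusted p below 0.05 in limma, where 2991 of all features did. Over all features 0.845% were called, all of them higher in Il10-/- mice, so that higher and either direction give the same share (0.902% of genes). The differences ran from -0.28 (Bank1, second probe) to 0.99 (Btk, dimmer probe), with a median of -0.00 beside 0.36 over all features. The 95% intervals for Cd79b (-1.13 to 0.65) and Ms4a1 (-1.14 to 0.84) leave room for a difference of about 1 log2 unit. The median of the 12 probes went to -0.35 with 75th percentile scaling and -0.46 with quantile normalization, and still none was called. Much of the WT width came from replicates 4 and 5, in which all 12 probes were lower than in replicates 1 to 3.

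After irradiation no probe was called between genotypes either, but 7 of 12 had lower signal in Il10-/- mice with an unadjusted limma p under 0.05, a level that 2066 of 18587 features reached in either direction. Over all features 0.00538% were called, the single one of them higher (0.00635% of genes). The 7 were both probes of Cd79a (-0.85 and -0.83), Cd79b (-0.76), Ms4a1 (-0.92), Blnk (-0.53) and both of Bank1 (-0.70 and -0.67), and their adjusted p-values in limma ran from 0.316 for Ms4a1 upward. The groups did not overlap for the brighter Cd79a probe, Ms4a1, Blnk and the first Bank1 probe, 4 of 12, while 0.716% of all features were lower without overlap. The Cd72 differences were -0.01 and -0.03 (95% intervals -0.73 to 0.71 and -0.81 to 0.76 in limma), and Btk (0.29 and 0.51) and Cd22 (0.30) lay on the other side of 0 without reaching the threshold. None of these differences passed the correction, so they stand as values only.

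The radiation effects were compared directly as an interaction. None of the 12 probes was called, as none of all features was (0%), and 0 of 12 had an unadjusted p below 0.05 in limma against 1301 of all features. The differences between the effects ran from -0.97 (Bank1, first probe) to 0.30 (Cd22), negative meaning a larger fall in mice labelled Il10-/-, with a median of -0.48 beside -0.20 for all features. The largest of the receptor chains was -0.95 for the brighter Cd79a probe, with an interval of -2.14 to 0.24. The larger falls in Il10-/- mice given above are therefore not shown to differ from those in WT.

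The other genes of the pathway were taken from a list of 76, of which 63 were measured and tested. In WT mice 7 were called lower and none higher, where 2.43% of all genes were called lower and 4.84% higher, and the median over the list was -0.34 beside -0.03 over all genes. In Il10-/- mice 12 were lower and 1 higher, where 6.32% of all genes were lower and 3.52% higher, with a median of -0.41 beside -0.10. Leaving out unirradiated WT replicate 5 raised the WT count from 7 to 12, and averaging replicates 1 and 2 lowered it to 3 in WT and 8 in Il10-/- mice.

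Of the coreceptor list, 2 of 4 genes were called lower in both genotypes. Cr2, the complement receptor CD21, changed by -2.96 in WT (SE 0.43) and -3.05 in Il10-/- mice (SE 0.34) with its probe of larger change. Its other probe, A_55_P1971729, gave -2.55 in WT and -2.00 in Il10-/- mice, both called. Cd81, the tetraspanin of the same complex but made in many cells, was called higher in Il10-/- mice at 1.33 (SE 0.29) and was 1.38 in WT without a call. Ifitm1, an interferon-induced membrane protein on that list, was the only listed gene called between unirradiated genotypes, higher in mice labelled Il10-/- by 2.73 and 3.01 on its 2 probes.

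Of the proximal kinases and phosphatases, 0 of 10 were called in WT and 1 of 10 in Il10-/- mice. That was Ptprc, the CD45 phosphatase of all white cells, at -1.10, and its WT value was -1.15 without a call. Lyn, the main Src family kinase of B cells that is also made in myeloid cells, gave 0.35 and 0.55, and Syk gave -0.54 and -0.14 in WT and -0.36 and 0.80 in Il10-/- mice on its 2 probes, none of them called.

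The adaptor and phosphoinositide 3-kinase list held 1 call in 18 in each genotype, Stap1, an adaptor that binds tyrosine-phosphorylated proteins in B cells, but on a different probe in each. Probe A_55_P1980308 of Stap1 gave -1.72 in WT (called) and -1.43 in Il10-/- mice, and A_55_P2033600 gave -1.74 and -1.90 (called). In the calcium and NF-kB branch 2 of 19 fell in WT, the paracaspase Malt1 (-1.96) and the kinase Prkcb (-1.93 on A_65_P20249, called, and -1.69 on A_55_P1976278). In Il10-/- mice 5 of 19 fell, led by Prkcb (-1.56 and -1.64 on the same probes, both called), Malt1 (-1.63) and the calcium channel Itpr3 (-1.35, with -1.42 in WT without a call). Plcg2, the phospholipase that Blnk and Btk act on, gave -0.90 and -1.05 without a call. Among the inhibitory receptors and phosphatases 2 of 12 fell in WT and 3 of 12 in Il10-/- mice: Btla, an inhibitory receptor of lymphocytes (-3.39 and -3.31), Siglecg, a sialic-acid-binding relative of Cd22 (-2.13 and -2.14), and in Il10-/- mice Cd200 (-1.61, with -1.77 in WT without a call). Fcgr2b, the inhibitory Fc receptor shared with myeloid cells, gave 0.78 and -0.09, and the phosphatases Inpp5d (0.00 and -0.09) and Ptpn6 (-0.65 and -0.66) were not called.

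**Figure D4:**
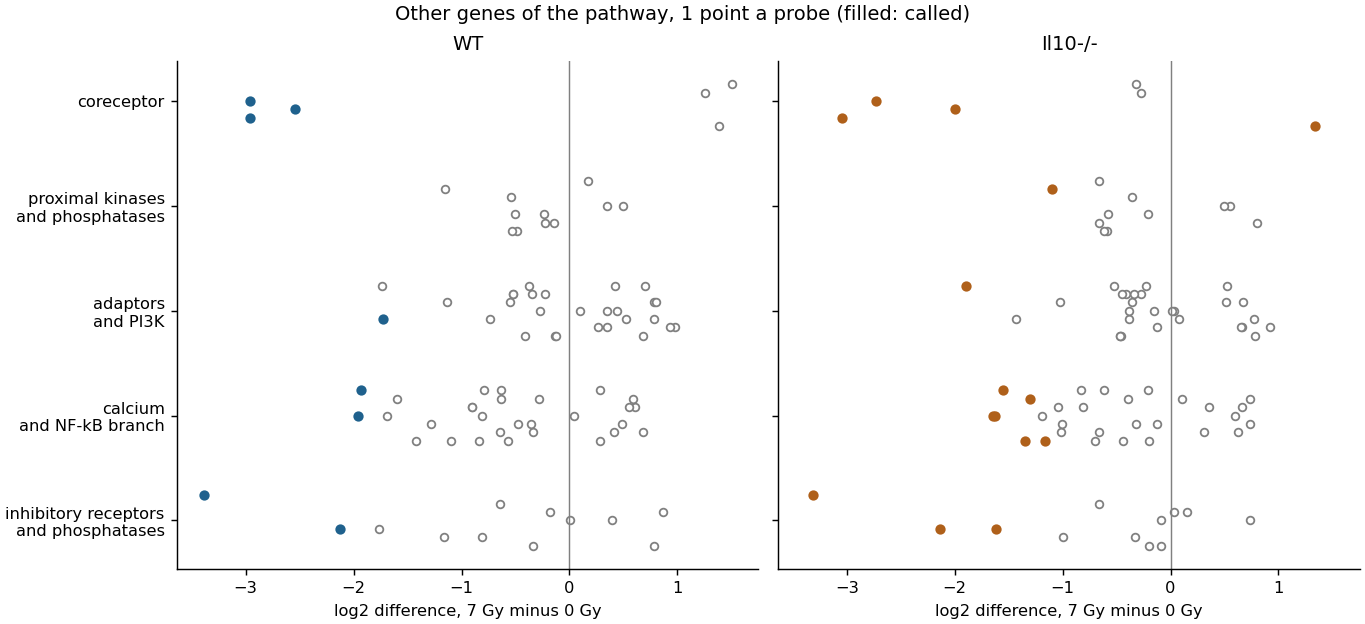
Log2 difference (7 Gy minus 0 Gy) of the other genes of the pathway in WT and Il10-/- mice, by list, with 1 point for each tested probe; vertical spacing inside a list only separates points. Filled points were called, and the point furthest left in both genotypes is Btla, while in WT no point of the proximal kinases and phosphatases is filled.

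Cell markers moved with radiation beside these genes. Of 10 measured B-cell markers, 8 were called lower in both genotypes, led by Vpreb3 (-5.24 and -5.77), with medians of -3.45 in WT and -3.73 in Il10-/- mice. Some of these markers, Cr2 among them, are also on the pathway list. Their summed linear signal over the array median ran from 355 to 919 without and 81.2 to 233 with radiation in WT, and from 393 to 708 and 85.6 to 193 in Il10-/- mice, with no overlap. The defining markers Ebf1 and Fcer2a were well above background on 5 of 5 unirradiated arrays in each genotype, and each on 1 of 5 irradiated arrays in WT and 0 of 5 in Il10-/- mice. The heavy chain genes Ighm and Ighd were not found under those names among the probes. T-cell marker sums overlapped between doses in WT (357 to 1170 against 375 to 894) and Il10-/- mice (954 to 1152 against 541 to 1031). Of 10 tested, 1 was called lower, Cd8a, at -3.03 in WT and -2.02 in Il10-/- mice on probe A_52_P443334. Its other tested probe, A_52_P150547, gave -1.68 and -0.88 without a call.

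Other lists moved as well, and their part in the values of the receptor genes was not tested. In WT mice 7 of 9 liver markers were called higher after radiation, where their summed signal went from a range of 125 to 244 to one of 491 to 64887. The liver sums of Il10-/- mice were high at both doses on some arrays (273 to 20530 without and 407 to 20538 with radiation, unirradiated replicates 3 and 4 being at 9141 and 20530), and 0 of 9 were called. Of 5 heart muscle markers 4 were called higher in Il10-/- mice, with sums of 29.3 to 228 without and 82.9 to 4780 with radiation. In WT 0 of 5 were called, with sums of 19.3 to 269 and 62.9 to 5798, and irradiated replicates 1 to 3 lay above every unirradiated array. Of the erythroid markers 4 of 8 fell in both genotypes, and platelet markers had no call in 7, with medians of 1.25 and 1.14. Mature neutrophil markers had no call in 8 after radiation. NK-cell markers had no call in 6, and of the 8 monocyte markers 1 was called lower and 2 higher in WT, and 2 lower in Il10-/- mice.

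**Figure D5:**
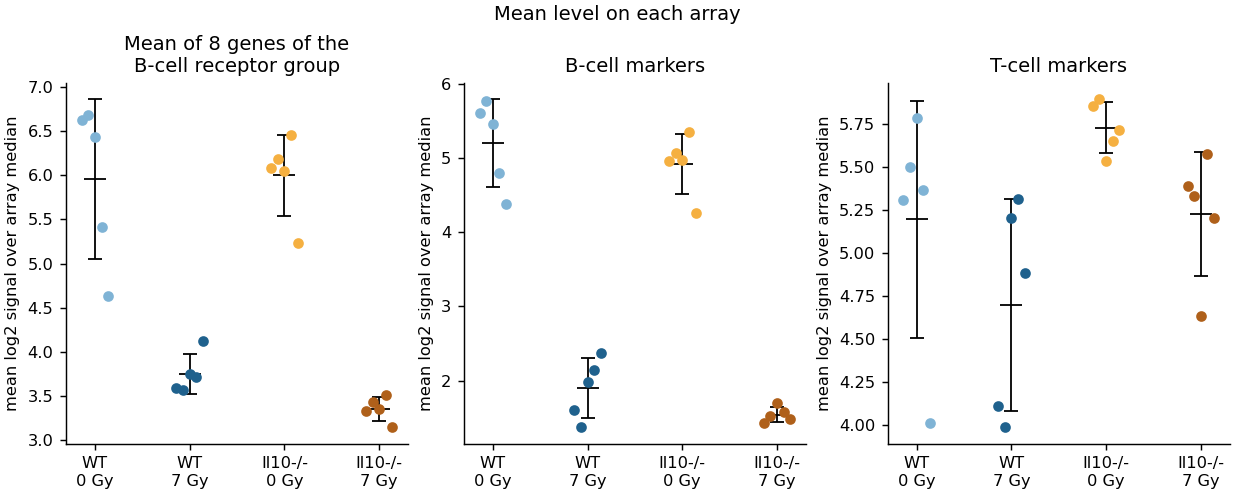
Mean log2 signal over the array median on each array for 8 of the receptor genes (the brightest probe of each, Blk left out), the 10 measured B-cell markers and the 11 measured T-cell markers. Points are mice and bars give mean and SD of 5; the first and second panels separate the doses in both genotypes and the third does not, and each panel has its own axis.

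The 8 genes rose and fell together across mice to different degrees. Their mean ran from 4.63 to 6.68 in unirradiated WT mice and from 3.57 to 4.13 in irradiated ones, and from 5.23 to 6.45 and 3.15 to 3.51 in mice labelled Il10-/-. Over the 20 arrays 7 genes correlated with the mean of the other 7 at r = 0.915 (Cd22) to 0.992 (Blnk), and Btk at 0.468. The order changed once the group means were removed: Btk then stood at 0.854, Ms4a1 was highest at 0.956, and Cd22 (0.588) and Cd72 (0.664) were lowest. All of these are descriptions over arrays that share slides and differ in quality, and the deviations of unirradiated WT replicates 4 and 5 weigh heavily in them.

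Among 18733 other genes, the most similar to the mean of the 8 over the 20 arrays were Cxcr5, a chemokine receptor of follicular B cells, and Ly6d, a surface marker of B-lineage cells, each at r = 0.990, followed by AF138742 (0.990). The list of 10 went on with Mcoln2, Fgd2 and Cd55, at r = 0.985 each, H2-Ob, a chain of the class II accessory molecule of B cells (0.983), and 3 transcripts known only by an identifier. Within groups the closest were Ly6d (0.964), Zbtb32 (0.957), Fgd2 (0.956) and Nup85 (0.952), then AF138742, Dnajc9, Abhd17b, Lat2, H2-DMb1 and Ifi27l2a at 0.948 to 0.951. Ly6d, Fgd2 and AF138742 stood on both lists. Over the 20 arrays Nup85 and Lat2 correlated only weakly with the mean of the 8 (r = 0.247 and 0.174). Ifi27l2a ran opposite to that mean over the 20 arrays (r = -0.772).

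The RefSeq promoter table held 6 of the 9 genes (Cd79a, Blnk, Btk, Cd22, Cd72 and Bank1). Since Cd79a and Blnk fell together and Btk did not, the 250 bases before the start of each are shown, from GRCm38.p6, 5' to 3' on the gene's strand: Cd79a at chr7:24897247-24897496 (plus), Blnk at chr19:40994222-40994471 (minus) and Btk at chrX:134583141-134583390 (minus). Motifs linked to B-cell transcription, 4 in number, were searched on both strands and are in capitals: the octamer ATTTGCAT, the EBF site CCCNNGGG, the PU.1 site GAGGAAGT and the E box CAGGTG, which do not overlap one another in these windows.
Cd79a promoter: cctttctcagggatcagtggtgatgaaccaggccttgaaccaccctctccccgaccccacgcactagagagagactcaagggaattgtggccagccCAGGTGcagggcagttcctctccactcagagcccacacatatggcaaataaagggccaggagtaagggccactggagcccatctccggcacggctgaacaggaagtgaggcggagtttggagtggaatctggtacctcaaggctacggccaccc
Blnk promoter: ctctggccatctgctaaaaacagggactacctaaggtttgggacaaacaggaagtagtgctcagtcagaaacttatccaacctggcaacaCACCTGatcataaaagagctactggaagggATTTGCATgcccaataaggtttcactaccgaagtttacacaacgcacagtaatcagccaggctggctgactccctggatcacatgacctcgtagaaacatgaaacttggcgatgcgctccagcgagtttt
Btk promoter: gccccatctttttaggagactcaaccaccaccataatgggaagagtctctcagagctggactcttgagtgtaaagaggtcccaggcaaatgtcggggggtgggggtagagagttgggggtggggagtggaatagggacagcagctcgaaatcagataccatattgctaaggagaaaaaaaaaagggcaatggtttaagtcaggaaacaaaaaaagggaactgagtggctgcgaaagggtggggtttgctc

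An E box lay 154 bases before the start in Cd79a and 160 in Blnk, an octamer 130 bases before the start in Blnk, and none of the 4 motifs was found in the Btk window. Among all 32851 promoters of the table, 17.2% hold the E box, 11.8% the EBF site, 2.44% the PU.1 site and 1.6% the octamer in the same window. Of the other genes, Cd22 held an EBF site (48 bases before the start) and an E box (245), Bank1 an EBF site (21) and an E box (145), and Cd72 a PU.1 site (49). A match is a string of letters and is not evidence of binding, and its absence says only that these letters are not in the window.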

How the data were processed

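RNA from mouse whole blood was globin-reduced and hybridised by the authors to 20 one-colour Agilent 4x44K arrays. The deposited array files hold spot intensity, background-corrected by Agilent Feature Extraction (10.7 per the labels, 12.0.2.2 per the file headers). The deposited series table holds log2 values of 16866 features, each column equal to log2 processed intensity plus a constant (within 0.01 on 20 of 20 arrays), and served as an alternative. Probe positions are those of the file annotation (mm9). Gene symbols were checked against RefSeq (GRCm38.p6, 28330 of 29785 accessions matched).

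Spots marked as outliers were dropped, spots of a probe averaged, and the median over 39429 probes subtracted per array after log2. A probe was removed when marked on at least 25% of arrays or when under 20% of arrays lay 1.5-fold or more from its median, which left 18587 features (15749 genes). Tests used limma 3.58.1 in R 4.3.3 (lmFit, eBayes) on the 10 arrays of the groups compared and on all 20 for the interaction, after the authors' thresholds, and were tested on simulated data. A gene with several probes was called when at least 1 was called and none the other way, and list medians use the mean of a gene's probes. A probe not well above background in any array of a group has only a bound: the other group's mean against the higher of its signal and the lowest well-above-background signal per array. Ratios used exact permutation. Figures were drawn with matplotlib.

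Groups came from the labels, 5 arrays each. The sample titles number the arrays of a group as replicates and name no mice, so that these are separate mice was assumed. The p-values measure the spread between these samples. The 9 genes and all lists were chosen with earlier results of these data known. Other genes were named by rule: in each list and comparison up to 3 largest called falls and rises, and the 10 genes most correlated with the mean of the receptor genes. Pathway genes named without a call were chosen for their role. One listed gene that the rule names is not reported here. Alternatives covered scaling, background correction, filters, thresholds, the slide as a block and left-out arrays. Array number limits the precision.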

Additional observations from a re-analysis of the deposited data

Results flagged for a closer look

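Dixon's gap test was applied to 76 sets of 5 arrays (the 14 probes, the 4 ratios and the mean of 8 genes, in 4 groups). It marked 9 of them, in which 1 array stood apart from the other 4 by more than 0.71 of the group's range, and chance alone marks about 1 in 20 such sets. In irradiated mice labelled Il10-/-, replicate 4 accounted for 4 of the 9. It was low for the dimmer Cd79a probe (0.37, the next being 0.80) and high for the brighter probes of Btk (5.25, next 4.88) and Cd22 (3.31, next 2.31), and for the ratio of Btk over Blnk (1.04, next 0.50). Replicate 5 accounted for another 4. Unirradiated Il10-/- replicate 5 was low for Cd79b (7.44, next 8.59), and its ratio of Cd79a over Cd79b was high (-0.60, next -1.29). The same ratio was low in unirradiated WT replicate 5 (-2.55, next -1.47) and high in irradiated Il10-/- replicate 5 (-0.92, next -1.55). The last was the ratio of Btk over Blnk in unirradiated WT replicate 2 (-2.07, next -2.29). No radiation effect on these genes was called different between genotypes, and none ran in opposite directions on all 5 slides.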

How the results depend on the processing

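For the radiation responses, changes in Bank1, Blnk, Cd22 and the sign of Btk are given with the results. Otherwise the receptor genes there kept direction and call under the other scalings, filters, thresholds and left-out arrays tried, except under normexp. Between genotypes and in the interaction no probe gained a call, but signs were less stable. Under other settings the sign differed for 30 of 151 probe values between unirradiated genotypes, 5 of 151 between irradiated ones and 22 of 139 in the interaction. With 1 array left out it differed for 28 of 120, 8 of 120 and 22 of 240. With normexp background correction 0 of the receptor probes and 0 of the listed pathway genes were called in either genotype, and 0 pathway genes between unirradiated genotypes (also 0 with quantile normalization after it); 261 WT and 0 Il10-/- features were then called at all. The count of pathway genes called in WT, 7 as reported, was 12 with 75th percentile scaling, with a rate under 5% alone and with the 2 noisiest arrays left out, 11 with quantile normalization, reference-array scaling, the authors' table and all 4 groups in 1 fit, and 3 with replicates 1 and 2 averaged. Leaving out 1 array gave 5 to 12 in WT and 10 to 14 in Il10-/- mice, where 13 were reported and averaging gave 8. Averaging, leaving out those 2 arrays and normexp with quantile normalization were chosen after seeing the data.

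Samples with the same number share a slide, but their deviations did not correlate above 0.1 in every pair (mean r -0.13 to 0.41), so they were not treated as pairs. With that replicate block 9 and 10 receptor probes and 7 and 11 pathway genes were called, and the changes of Btk over Cd79b (2.83 and 3.25) and Btk over Blnk (1.98 and 2.37) had adjusted p = 0.0714 by exact sign flips, where 0.0625 is the smallest unadjusted p possible.

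Ratios that did not hold were those of Cd79a over Cd79b, 0.14 in Il10-/- mice with normexp and 0.047 with all probes of a gene averaged. Leaving out 1 array gave -0.085 (without unirradiated replicate 5) to 0.25 in WT and -0.40 (without irradiated replicate 5, then past the threshold) to -0.11 in Il10-/- mice. Cd22 over Cd72 in Il10-/- mice passed the threshold without unirradiated replicate 5 (0.99) or irradiated replicate 1 (0.98), in a range of 0.69 to 0.99.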
